A study of Mus musculus with 8 samples.

Results

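Mild treadmill running was compared with no running in mice on a placebo diet, using the 4 of 8 hippocampus arrays that carry these groups. The members were chosen by label: the 2 arrays of the ME group against the 2 arrays of the SED group, each pair compared within its dye. SED mice were sedentary and ME mice exercised at an intensity set from the ventilatory threshold. Both groups were male C57BL/6J mice of 11 weeks with 8 mice per group, and both ate a placebo powder mixed into the food at 0.5%. The remaining 4 arrays hold mice on the astaxanthin diet, in which 2% of that powder was astaxanthin, a carotenoid antioxidant: AX mice stayed sedentary and AX+ME mice ran. Replicate 1 of each group was labelled with Cy3 and replicate 2 with Cy5. How the RNA of 8 mice became 2 samples per group is not stated in the sources used here, so p-values measure only the spread between samples, which may be technical.

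The hippocampus forms spatial and episodic memories, and its dentate gyrus adds neurons throughout adult life. Light running is known to raise that neurogenesis in rodents, with growth factors such as Bdnf, Igf1 and Vegf as the usual mediators. The series title places leptin, an appetite hormone whose receptor signals through Jak2 and Stat3, among the factors of interest. Around the hippocampus lie the choroid plexus, an epithelium that secretes cerebrospinal fluid, and the meninges, the coverings of the brain, whose fibroblasts lay down collagen.

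A single slide carried all 8 arrays, its rows differing in dye and its columns in group, so that slide column and group cannot be told apart. Both SED arrays stand apart. In array columns below 70 they held 703 of 15634 probes (4.50%) at least 0.8 log2 below the other arrays of their dye in both dyes, and only spots from column 70 on were used. Columns 70 to 84 of the SED arrays were still brighter than the other groups, by a median log2 difference of 0.11 in Cy3 and 0.18 in Cy5. Of the spots from column 70 on, between 63.1% and 76.3% per array were well above background, the scanner software's own call, and 584 to 913 were saturated. With 2 arrays per group, the number of arrays limits the precision. As a check of the tissue label, all 6 dentate granule cell genes and all 13 CA pyramidal cell genes with a probe in the columns used passed the filter on dim probes, beside 21919 of 32411 probes and 3 of 7 pituitary genes.

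Running on the placebo diet went with more genes lower than higher, with the hormone genes Prl, Trh, Gh and Pomc among the largest differences. Genes of the choroid plexus, the meninges and the interferon response were lower by smaller amounts. Among 17770 genes and unnamed transcripts tested (10549 with a symbol), 138 were at least 1.5-fold lower in ME in both dyes (0.777%) and 29 at least 1.5-fold higher (0.163%), while 36 (0.203%) were that far apart in opposite ways. At any size, 8420 (47.4%) were lower in both dyes and 3728 (21.0%) higher, and the median log2 difference was -0.05. Of those with a symbol, 67 were 1.5-fold lower (0.635%) and 10 higher (0.0948%). After quantile normalization, which moves that median to 0.01, 78 genes were 1.5-fold lower and 45 higher. The 75th percentile that scaled each array was taken over all columns. Taken from column 70 on instead, it gave a median of -0.004, with 103 genes 1.5-fold lower and 33 higher. By limma, 0 genes (0%) passed a Benjamini-Hochberg adjusted p of 0.05, the smallest being 0.0804. At an unadjusted p under 0.05 there were 3023 lower (17.0%) and 810 higher genes (4.56%). No difference below passed the adjusted test, and each is given as a measured value.

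The count of calls depended on the model and on single arrays. When the spread was allowed to follow the signal intensity, limma called 945 genes lower and 124 higher. Leaving out an ME or SED array, which leaves 1 array in that group, changed the calls in some fits. Without ME replicate 1 they were mostly higher genes, and without ME replicate 2 only higher. Of the 138 lower genes, 44 were well above background on all 4 arrays, and 32 were well above it on neither ME array. SED was the highest of the 4 groups in both dyes for 85 of them (61.6%, against 26.8% of all genes tested). ME was the lowest for 66 (47.8%, against 11.2%). Choosing genes lower in ME than in SED favours both placements. The share of genes 1.5-fold lower was 1.29% in array columns 70 to 84, where the SED arrays were brighter, and between 0.499% and 0.881% in the bands further right. Among genes named below, F5, Ifit3, S100a9, Tbx15, Theg, Kif12, Wnt6, Gsta2, Gm10639, Lbhd2, Xlr4b, Srd5a1, Sod2, Esam, Dnah11, Klf4, Jun, Anpep and Ccnd1 have their probe in columns 70 to 84, and the part of that brightness in their differences was not tested.

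**Figure D1:**
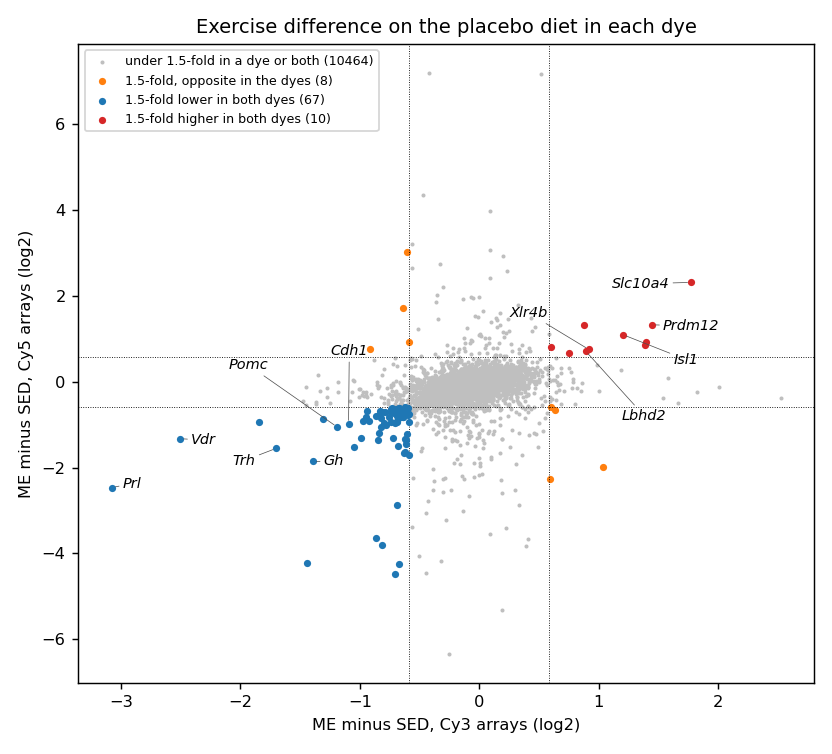
Log2 difference of ME from SED for genes with a symbol, on the Cy3 arrays (horizontal axis) and on the Cy5 arrays (vertical axis), with dotted lines at 1.5-fold. The 67 genes lower in both dyes (blue) outnumber the 10 higher (red).

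Prl, which encodes the pituitary hormone prolactin, gave the largest difference by the smaller of its values in the dyes. Its log2 level, taken relative to the array's 75th percentile, was -3.68 in SED against -6.76 in ME with Cy3, and -3.58 against -6.05 with Cy5. Neither ME array was well above background, so the difference is given as at least 5.30-fold lower (fitted log2 difference -2.77, SE 0.189, adjusted p = 0.0816). The 4 arrays of the astaxanthin diet lay between -3.67 and -3.38, beside the SED arrays, so the ME group alone was low. Gh, growth hormone, read -4.72 and -4.06 in SED and -6.12 and -5.92 in ME, where 1 array was well above background. Its fitted difference was -1.63 (SE 0.233, adjusted p = 0.0915), and the astaxanthin diet arrays lay from -4.20 to -3.67, above both ME arrays. Of 13 pituitary markers, these genes and Pomc were the 3 that could be tested. Pou1f1 and Tbx19, transcription factors that define pituitary cell lineages, Pitx1 and the thyrotropin gene Tshb had probes but were well above background on both arrays of no group.

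Pomc encodes the precursor of corticotropin and beta-endorphin and is made in the pituitary and in hypothalamic neurons. It was well above background on all 4 arrays, at 0.39 and 0.26 in SED and -0.80 and -0.80 in ME. The fitted difference was -1.12 (SE 0.0516, adjusted p = 0.0804). AX (-0.22 and -0.31) and AX+ME (-0.36 and -0.40) lay between the placebo groups. The summed signal of the 3 pituitary genes, in units of the 75th percentile, was 1.43 and 1.34 in SED, 0.598 and 0.608 in ME, and 0.910 to 1.010 on the astaxanthin diet. Pomc, far brighter than Prl and Gh, made up most of this sum. Fewer cells of a type and less RNA per cell cannot be told apart in ground tissue, here and in the groups that follow.

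The Prl promoter is shown because the transcription factor Pit-1, encoded by Pou1f1, drives this gene in pituitary cells through sites with the core TATNCAT. In the 250 bases before the start of Prl (RefSeq, GRCm38.p6, chr13:27057320-27057569, plus strand), that core matched at 2 places on either strand, given in capitals, and it matches in 7.92% of the 32851 mouse promoters searched over the same length. Of the 47 promoters of named genes 1.5-fold lower, 4 held it, those of Prl, Col3a1, Bcl2l15 and Rnf148.
Prl: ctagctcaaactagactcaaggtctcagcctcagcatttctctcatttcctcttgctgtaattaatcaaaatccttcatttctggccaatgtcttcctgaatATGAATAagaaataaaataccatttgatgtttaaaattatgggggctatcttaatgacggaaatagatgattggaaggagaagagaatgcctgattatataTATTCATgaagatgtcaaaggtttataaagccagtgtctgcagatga

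Trh, the precursor of thyrotropin-releasing hormone made by hypothalamic neurons, behaved unlike the pituitary genes. It stood at -1.64 and -1.92 in SED and at -3.34 and -3.48 in ME, a fitted difference of -1.63 (SE 0.0817, adjusted p = 0.0804). Both AX arrays (-3.54 and -3.84) and both AX+ME arrays (-3.06 and -3.10) lay near the ME arrays, so here the SED group alone was high. Rax, a homeobox factor of the eye field and hypothalamus, differed by -0.88 (SE 0.225), with 1 ME array not well above background. Other hypothalamic genes went the opposite way: Cartpt, which encodes the CART appetite peptide, was higher in ME by 0.30 (SE 0.0451). Of 9 hypothalamus genes tested, 5 were lower in both dyes (47.4% of all genes) and 2 higher (21.0% of all genes), with a median of -0.24. Nkx2-1, Otp and Gpr50 of the same list had probes in the columns used but did not pass the filter on dim probes.

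**Figure D2:**
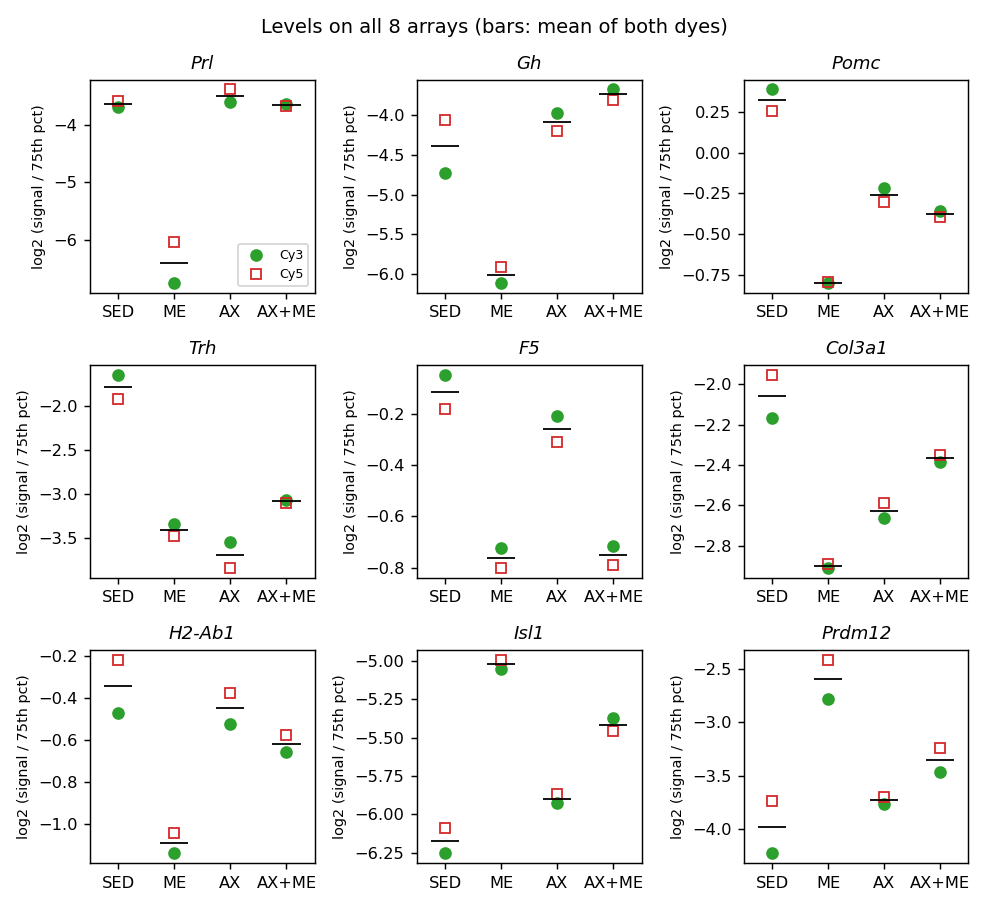
Log2 level relative to the array's 75th percentile (vertical axes, which differ between panels) of 9 genes on all 8 arrays, by group, with Cy3 as filled circles, Cy5 as open squares and the mean of both as a bar. Prl and Gh are low in ME alone, Trh is high in SED alone, and F5 is lower in both running groups than in their sedentary controls.

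Choroid plexus genes were lower in ME almost without exception: of 14 tested, 13 were lower in both dyes (47.4% of all genes) and none higher. Unadjusted p-values under 0.05 were held by 12 of them, all lower (17.0% of all genes). The median was -0.42 beside -0.05 for all genes tested. F5, coagulation factor V, stood at -0.05 and -0.18 in SED and at -0.72 and -0.80 in ME (difference -0.65, SE 0.0420, adjusted p = 0.0816). Kcne2, a potassium channel subunit of the epithelium, differed by -0.52 (SE 0.0490). Otx2, the homeobox factor that specifies choroid plexus, differed by -0.51 (SE 0.0462). Folr1, which carries folate into cerebrospinal fluid, differed by -0.44 and the metal reductase gene Steap1 by -0.45. The SED and ME arrays overlapped in none of these 5 genes. They were named for the smallest unadjusted p on the list, a choice that favours such separation. The share of all genes without overlap was not counted. Summed over the 14 genes, the signal was 76.5 and 62.4 times the 75th percentile in SED and 63.9 and 54.9 in ME, so within each dye ME was the lower.

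The ependyma, the ciliated lining that adjoins the choroid plexus, followed with smaller differences. Of 11 tested genes, 10 were lower in both dyes (47.4% of all genes) and 1 higher, with a median of -0.15, and 4 were lower at an unadjusted p under 0.05 (17.0% of all genes). Rsph1 and Ccdc153, both of motile cilia, differed by -0.15 each (SE 0.0431 and 0.0476). Dnah11, a dynein heavy chain of cilia, differed by -0.32 (SE 0.0995). Outside this list, Wfikkn2, which encodes a secreted protease inhibitor, stood at -1.70 and -1.82 in SED and at -2.51 and -2.52 in ME.

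Genes of meningeal fibroblasts were lower as a group. All 7 that could be tested were lower in both dyes (47.4% of all genes), with a median of -0.40. At an unadjusted p under 0.05, 6 were lower (17.0% of all genes). Col3a1, the collagen III chain, stood at -2.17 and -1.95 in SED and at -2.91 and -2.89 in ME (difference -0.84, SE 0.0644, adjusted p = 0.0816). Col1a2, a collagen I chain, differed by -0.47 (SE 0.0476), the matrix calcification inhibitor gene Mgp by -0.36 and the retinoic acid synthesis gene Aldh1a2 by -0.40. Slc6a13, a transporter for GABA and taurine in leptomeninges, differed by -0.26. The summed signal of the 7 genes was 10.8 and 11.0 in SED, 8.27 and 8.50 in ME, and 9.87 to 10.6 on the astaxanthin diet, so the ME arrays were the lowest of the 8.

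Matrix genes were lower too, on a list that shares members with the one before. Of 18 collagen and matrix genes, 15 were lower in both dyes (47.4% of all genes) and 1 higher (21.0% of all genes). Their median was -0.37, and 12 were lower at an unadjusted p under 0.05 (17.0% of all genes). Prg4, which encodes lubricin, stood at -2.71 and -2.68 in SED and at -3.56 and -3.87 in ME (difference -1.02, SE 0.113). Fmod, a proteoglycan that binds collagen fibrils, differed by -0.49 and Col8a2, a collagen of basement membranes, by -0.40. Outside this list, Pcolce, which speeds procollagen processing, stood at 2.62 and 2.54 in SED and at 2.03 and 1.93 in ME.

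In the vessel wall, pericyte and smooth muscle markers were lower in both dyes in 6 of 7 cases (47.4% of all genes). Their median was -0.26. Cnn1, the smooth muscle calponin, differed by -0.44 (SE 0.0468) and the pericyte peptidase gene Anpep by -0.48 (SE 0.0740). Endothelial genes were nearer the background of all genes, at a median of -0.09 over 9, and Esam, an endothelial adhesion molecule, differed by -0.40.

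Interferon-induced genes and genes of antigen presentation were lower too. Of 14 tested, 12 were lower in both dyes (47.4% of all genes) and none higher, 7 at an unadjusted p under 0.05 (17.0% of all genes). The median was -0.16, beside -0.05 for all genes tested. H2-Ab1, a class II histocompatibility chain of antigen-presenting cells, stood at -0.47 and -0.22 in SED and at -1.14 and -1.04 in ME (difference -0.75, SE 0.0590, adjusted p = 0.0816). Ifit1, which binds foreign RNA, differed by -0.72 (SE 0.0876) and its relative Ifit3 by -0.67 (SE 0.167). Isg15, a ubiquitin-like modifier, differed by -0.39 and Ifi27 by -0.29. The guanylate-binding protein gene Gbp6, outside this list, differed by -0.74, with 1 ME array not well above background. Genes of microglia, the resident immune cells, had a median of -0.04, which changed sign under 4 of 18 settings. Of 11 tested, 5 were lower in both dyes (47.4% of all genes) and 3 higher (21.0% of all genes).

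The promoters of Ifit1 and Ifit3 are shown because interferon acts on such genes through a repeat of GAAA with 2 bases of any kind between the copies, the interferon response element. Both strands of the 250 bases before each start were searched (RefSeq, GRCm38.p6, plus strand: Ifit1 at chr19:34640639-34640888, Ifit3 at chr19:34583279-34583528). Each held 2 matches, in capitals, which read as the reverse complement on the strand printed. The repeat matched in 2.98% of the 32851 promoters. Of the 14 tested genes of this list, 11 had a promoter entry and 5 of these a match, Ifit1, Ifit3 and Isg15 among them. Of the 67 genes with a symbol that were 1.5-fold lower, 47 had an entry, and Ifit1 and Ifit3 were the 2 with a match.
Ifit1: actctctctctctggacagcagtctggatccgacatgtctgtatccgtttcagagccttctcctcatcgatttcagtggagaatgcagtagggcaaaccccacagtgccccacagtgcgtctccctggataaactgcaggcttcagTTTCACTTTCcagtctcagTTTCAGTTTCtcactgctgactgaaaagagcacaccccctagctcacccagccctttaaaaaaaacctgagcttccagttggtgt
Ifit3: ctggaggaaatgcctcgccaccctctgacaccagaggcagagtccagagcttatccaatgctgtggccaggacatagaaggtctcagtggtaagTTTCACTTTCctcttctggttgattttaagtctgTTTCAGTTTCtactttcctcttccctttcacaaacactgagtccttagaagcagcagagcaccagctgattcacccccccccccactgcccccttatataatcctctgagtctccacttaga

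The other large negative differences belonged to varied genes, several of them dim. Cdh1, the epithelial cadherin, stood at -4.64 and -5.09 in SED and at -5.73 and -6.07 in ME (difference -1.04, SE 0.0623, adjusted p = 0.0804), with 1 ME array not well above background. S100a9, a calcium-binding protein of neutrophils, read -3.09 and -3.09 in SED against -4.09 and -4.39 in ME (difference -1.15, SE 0.266, adjusted p = 0.135). Cyp2f2, a cytochrome P450, stood at -4.12 and -4.28 in SED and at -5.43 and -5.14 in ME (difference -1.09, SE 0.175, adjusted p = 0.0926). Both were well above background on all 4 arrays. The chemokine gene Ccl7 read -5.56 and -5.52 in SED and was well above background on neither ME array, at least 1.41-fold lower. Vdr, the vitamin D receptor, stood at -3.003 and -5.28 in SED and at -5.51 and -6.60 in ME, so the SED arrays differed by more than the lower SED array differed from the higher ME array (adjusted p = 0.124). Tbx15, a T-box transcription factor of mesenchyme, differed by -0.92 (SE 0.185) and the unnamed protein gene E330014E10Rik by -0.94 (SE 0.241), each with 1 ME array not well above background.

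Theg, Kif12, Slc13a2 and Vmn1r80 complete the 15 genes with the largest negative differences, and each had a wide error. Theg, a testis gene, differed by -1.28 with an SE of 0.813. Kif12, a kinesin, was well above background on 1 SED array and on no ME array (SE 1.24), and the pheromone receptor gene Vmn1r80 likewise (SE 0.921). Slc13a2, a citrate transporter of kidney, was above it on 1 array of each group (SE 0.637). Their adjusted p-values lay between 0.192 and 0.423.

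Other genes past 1.5-fold lower in both dyes were varied, and those given here were chosen after their values were seen. Among them were the prostaglandin receptor genes Ptger3 (-0.83, SE 0.0767) and Ptgdr (-0.81, SE 0.122). The glutathione transferase gene Gsta2 (-0.67, SE 0.0639) and the near-identical model Gm10639 (-0.74, SE 0.0556) were lower, and their probes may share transcripts. Genes of secreted proteins among them were Wnt6 (-0.83, SE 0.0831), Bmp3 (-0.73, SE 0.0636) and Cbln1 (-0.66, SE 0.0702), a synapse organiser. Cbln1 stood at -0.08 and -0.06 in SED and at -0.74 and -0.72 in ME, with AX (-0.81 and -0.68) at the ME level. Dtl, which marks replication factors for destruction, stood at -2.36 and -2.34 in SED and at -3.10 and -3.05 in ME (SE 0.0426, adjusted p = 0.0804). Sphk1, which makes sphingosine 1-phosphate, differed by -0.61, the embryonic globin gene Hbb-bh1 by -0.75 and Dapl1 by -0.80.

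Genes higher after running were fewer. Prdm12, a transcription factor of nociceptor and hypothalamic Pomc neurons, gave the clearest difference well above background on all 4 arrays. It stood at -4.23 and -3.74 in SED and at -2.78 and -2.41 in ME (difference 1.39, SE 0.112, adjusted p = 0.0816). A second Prdm12 probe, above background on none of the 4 arrays, gave opposite signs in the dyes. Isl1, a LIM homeobox factor of striatal, cholinergic and hypothalamic neurons, stood at -6.25 and -6.09 in SED and at -5.05 and -4.99 in ME (difference 1.15, SE 0.0697, adjusted p = 0.0804), with 1 SED array not well above background. Lbhd2, a gene of little known function, stood at -0.34 and -0.20 in SED and at 0.54 and 0.52 in ME (difference 0.80, SE 0.0627, adjusted p = 0.0816). For these 3 genes the ME arrays were the highest of all 8.

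Xlr4b, an X-linked gene of the Xlr family whose copies are near-identical, stood at -3.77 and -3.75 in SED and at -2.86 and -2.99 in ME (difference 0.84, SE 0.165). Both AX arrays read as high as ME (-2.98 and -2.91) and both AX+ME arrays as low as SED or lower (-3.69 and -4.24). Slc10a4, a transporter of cholinergic and monoamine vesicles, was well above background on 1 ME array and no SED array, so no fold is given (adjusted p = 0.114). Olfactory receptor genes made up 4 of the 10: Olfr139, Olfr1109, Olfr661 and Olfr1232. Olfr139, Olfr1109 and Olfr661 were each well above background on 1 ME array and no SED array, so no fold is given. Only Olfr1232 was well above background in both groups, at -5.60 and -5.45 in SED and -4.86 and -4.78 in ME (difference 0.71, SE 0.0576). Crygf, a lens crystallin, differed by 0.70 (SE 0.188).

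Growth factors tied to running went both ways. Of 13 tested, 8 were lower in both dyes (47.4% of all genes) and 3 higher (21.0% of all genes). Their median was -0.06 and changed sign under 2 of 18 settings. At an unadjusted p under 0.05 there were 3 higher (4.56% of all genes) and 3 lower (17.0% of all genes). Bdnf, the neurotrophin most often linked to running, stood at 1.504 and 1.58 in SED and at 1.39 and 1.51 in ME (difference -0.09, SE 0.0517), and its receptor gene Ntrk2 differed by -0.18. Igf1, a growth factor that mediates effects of growth hormone, stood at -1.10 and -1.03 in SED and at -1.57 and -1.37 in ME (difference -0.40, SE 0.0697). The neurotrophin gene Ntf3 differed by 0.23 (SE 0.0704) and the endothelial factor gene Vegfb by 0.17 (SE 0.0411).

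Leptin itself was near background. Lep read -6.54 and -6.20 in SED, neither well above background, and -6.32 and -5.95 in ME, where 1 array was (adjusted p = 0.34). No fold is given, as 1 ME array was not well above background. The receptor gene Lepr stood at 1.61 and 1.07 in SED and at 1.46 and 1.14 in ME, a difference of -0.04 (SE 0.0713) that was of opposite sign in the dyes. Downstream, Socs3, the inhibitor that leptin and cytokine receptors induce, stood at -1.55 and -1.60 in SED and at -1.87 and -1.99 in ME (difference -0.36, SE 0.0441). Jak2 differed by -0.16 and the insulin receptor substrate gene Irs1 by -0.18. Of 12 leptin signalling genes, 9 were lower in both dyes (47.4% of all genes) and 1, Lep, read higher near background (21.0%). At an unadjusted p under 0.05, 3 were lower (17.0% of all genes). The median was -0.10, beside -0.05 for all genes tested.

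Androgen and neurosteroid genes centred on 0, with a median of -0.02 over 9 that changed sign under 3 of 18 settings. Srd5a1, the enzyme that makes dihydrotestosterone, stood at 1.15 and 1.28 in SED and at 0.88 and 0.90 in ME (difference -0.33, SE 0.0543). The aromatase gene Cyp19a1 differed by 0.39 (SE 0.214). Markers of neural stem and progenitor cells, the source of adult-born neurons, had a median of -0.23 over 6. Of these, 4 were lower in both dyes (47.4% of all genes) and none higher (21.0% of all genes). For proliferation genes 10 of 15 were lower in both dyes (47.4% of all genes) and 3 higher (21.0% of all genes), with a median of -0.18. By dye their medians were -0.054 in Cy3 and -0.199 in Cy5, beside -0.06 and -0.049 for all genes tested. The cyclin genes Ccnd1 and Ccnb1 differed by -0.26 and -0.59 and Mki67 by -0.23. The 4 immature neuron genes tested had a median of -0.11.

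Early response genes, which neurons switch on when active, were near the background of all genes: 12 of 21 were lower in both dyes (47.4% of all genes) and 4 at an unadjusted p under 0.05 (17.0% of all genes), with a median of -0.08. Klf4 differed by -0.42 (SE 0.0537), Jun by -0.32 (SE 0.0602) and Egr1 by -0.23 (SE 0.0399). Among striatal genes Drd1, the D1 dopamine receptor, stood at -1.94 and -1.95 in SED and at -2.47 and -2.59 in ME (difference -0.58, SE 0.0492, adjusted p = 0.0816). Adora2a, an adenosine receptor of striatal projection neurons, differed by -0.30, whereas Isl1 of the same list was higher. Slc2a4, the insulin-regulated glucose transporter, stood at -2.01 and -2.002 in SED and at -2.43 and -2.48 in ME (difference -0.45, SE 0.0414). Of 15 antioxidant genes 9 were lower in both dyes and 3 higher, beside 47.4% and 21.0% of all genes, with a median of -0.12 and Sod3, Nfe2l2 and Sod2 at -0.32, -0.27 and -0.24. Of 10 astrocyte genes 7 were lower in both dyes and 2 higher, with a median of -0.07, and Gfap, the astrocyte filament gene, was 1 of the higher at 0.29 (SE 0.0893). Of 6 genes of thalamus and habenula 3 were lower and 2 higher, with a median of -0.03 and Prkcd at 0.37 (SE 0.0459). Dentate granule cell and CA pyramidal cell lists had medians of 0.02 and 0.00, which changed sign under 2 and 3 of 18 settings. All other lists, of glia, neuron types, receptors, metabolism, clock and stress genes, had medians between -0.18 for the circadian clock and 0.01 for glucocorticoid response.

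**Figure D3:**
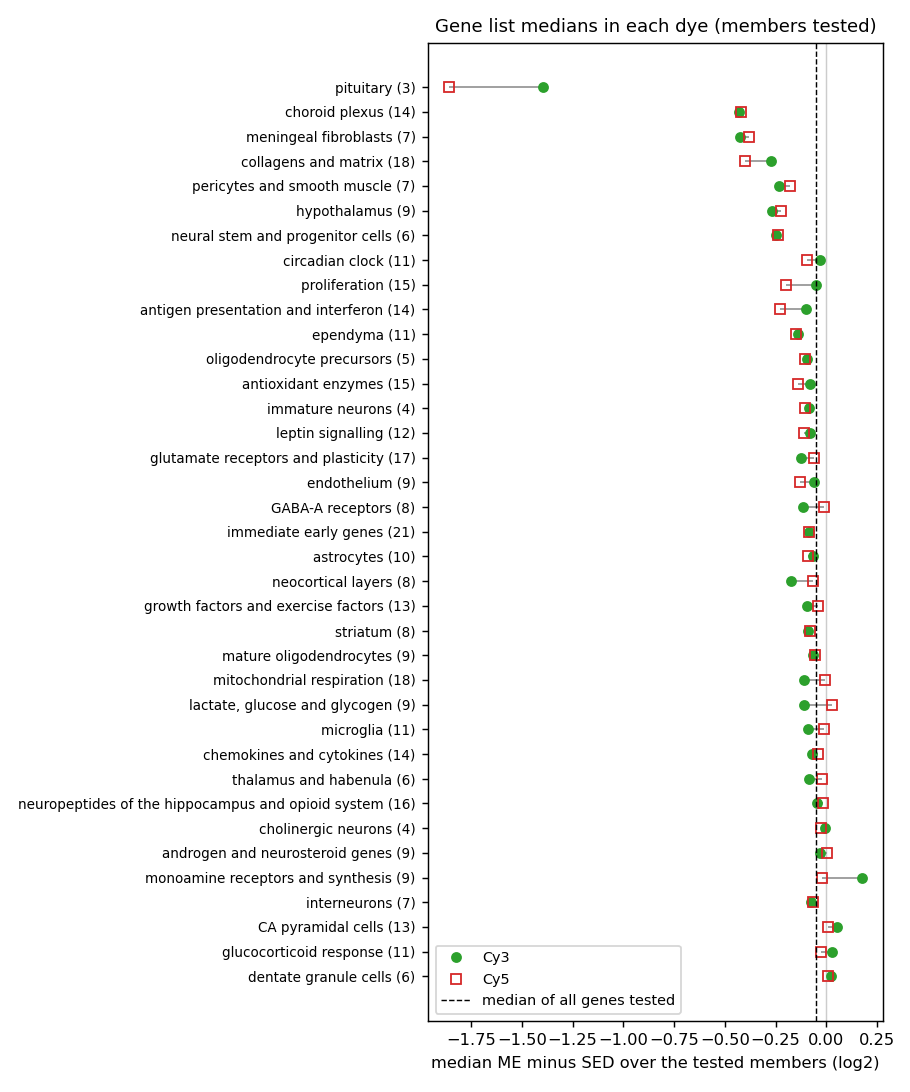
Median log2 difference of ME from SED over the tested members of each gene list (number in brackets), in Cy3 (filled circles) and Cy5 (open squares), with the median of all genes tested as a dashed line at -0.05. The pituitary list lies farthest below, at -1.39 and -1.86, followed in both dyes by choroid plexus. Lists with fewer than 3 tested members are not drawn.

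Running was also compared within the astaxanthin diet, AX+ME against AX, which shares no array with ME against SED. There 58 genes (0.326%) were at least 1.5-fold lower in both dyes and 138 (0.777%) higher. By limma 0 genes (0%) passed, with a smallest adjusted p of 0.119, and 1731 (9.74%) had an unadjusted p under 0.05. Choroid plexus genes were lower here as well: 13 of 14 in both dyes (26.5% of all genes). Their median was -0.44, beside 0.01 for all genes tested. F5 differed by -0.51 and -0.48, Kcne2 by -0.42 and -0.53, Steap1 by -0.51 and -0.61 and Folr1 by -0.45 and -0.40 in Cy3 and Cy5. The ependyma list had a median of -0.23, with 7 of 11 lower in both dyes (26.5% of all genes) and none higher (31.9%). Among other genes 1.5-fold lower on the placebo diet, Tmprss11a (-0.37 and -0.47), Plbd1 (-0.31 and -0.39), Rd3l (-0.24 and -0.25) and Ceacam16 (-0.43 and -0.65) were lower on the astaxanthin diet, and they were named after these values were seen.

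The meningeal, matrix and interferon lists had negative medians on the placebo diet only. The median of all genes was likewise -0.05 on the placebo diet and 0.01 on the astaxanthin diet. Meningeal fibroblast genes had a median of 0.18 with running on the astaxanthin diet. Of these, 5 of 7 were higher in both dyes (31.9% of all genes) and 1 lower (26.5% of all genes). Collagen and matrix genes had a median of 0.05, with 10 of 18 higher (31.9% of all genes) and 6 lower (26.5%). Col8a2 was an exception at -0.52 and -0.44. Interferon and antigen presentation genes had a median of 0.01, the same as all genes. Of these 14, 4 were higher (31.9% of all genes) and 4 lower (26.5%). Of the 138 genes lower on the placebo diet, 61 (44.2%) were lower in both dyes with running on astaxanthin and 39 (28.3%) higher, beside 26.5% and 31.9% of all genes tested. Of the 29 higher genes, 19 (65.5%) were higher there and 5 (17.2%) lower. Lbhd2 was higher by 0.45 and 0.36, Isl1 by 0.55 and 0.41 and Prdm12 by 0.30 and 0.46 in Cy3 and Cy5.

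The difference between the diets was tested directly, as the ME minus SED difference less the AX+ME minus AX difference. By limma 0 genes (0%) passed, with a smallest adjusted p of 0.104, and 2274 (12.8%) had an unadjusted p under 0.05. Trh gave -2.24 (adjusted p = 0.104), Pomc -1.004 (adjusted p = 0.104), Cdh1 -1.11 (adjusted p = 0.104) and Prl -2.61 (adjusted p = 0.138). For Isl1 and Prdm12 the difference was 0.67 (adjusted p = 0.199) and 1.01 (adjusted p = 0.207).

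**Figure D4:**
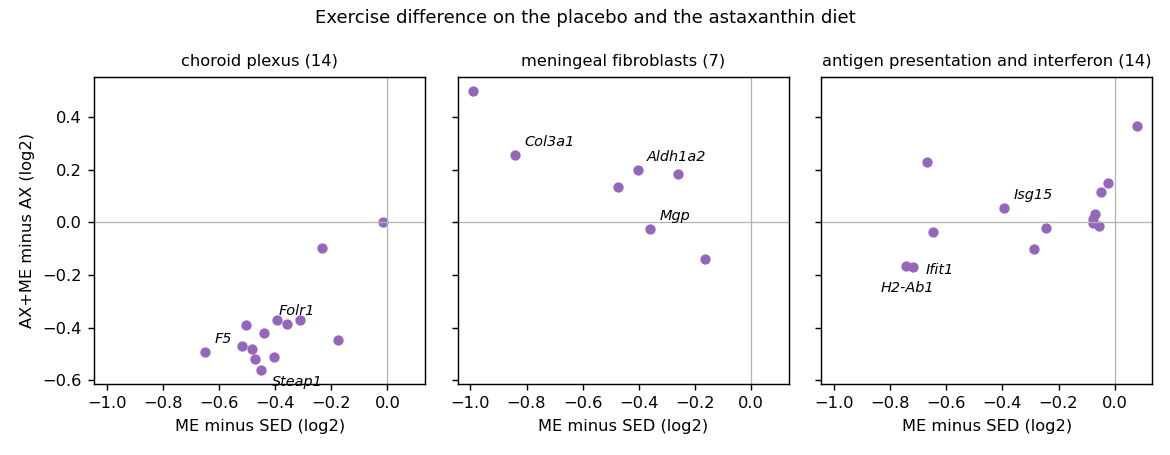
Log2 difference with running on the placebo diet (ME minus SED, horizontal axis) and on the astaxanthin diet (AX+ME minus AX, vertical axis) for every tested member of 3 gene lists, 1 point per gene. In both dyes 13 of the 14 choroid plexus genes were below 0 on each diet, whereas 5 of the 7 meningeal fibroblast genes lie below 0 on the placebo diet and above 0 on the astaxanthin diet.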

How the data were processed

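Each of 8 arrays on 1 slide held 1 labelled hippocampus sample. The authors' scanner files hold spot intensity; the submitters' processing notes name Agilent Feature Extraction 11.0.1.1. Per the file headers, the deposited processed intensity is background-subtracted and detrended inside each array, without scaling across arrays; the deposited series-wide values are that intensity rounded to whole numbers. The own-dye signal of non-control spots was divided by its 75th percentile on that array, floored at 0.002 and converted to log2, and spots from array column 70 on (34334 of 59305) were used. Probes well above background in both dyes of any group stayed in, and the brightest probe stood for a gene. Symbols came from accessions matched to the RefSeq gene table (15530 of 32411 probes); the others stayed unnamed. limma 3.58.1 in R 4.3.3 fitted group and dye over all 8 arrays (3 residual and 1.63 prior degrees of freedom), with 2-sided p-values and Benjamini-Hochberg adjustment, after a test on simulated data. Replicate number and dye coincide, so the dye term is the replicate block. A bound ("at least N-fold") compares the brighter group's mean with a limit for each dim array. That limit is the higher of the probe's signal and the array's lowest signal well above background. Bounds were given only where both arrays of the brighter group were well above background. Saturated spots were kept. Named were the 15 largest negative and 10 largest positive differences past 1.5-fold in both dyes, ranked by the smaller dye difference, further genes past 1.5-fold chosen by value, and up to 5 members per gene list, out of 38 lists. The members, lists and rules were chosen with earlier results of these data known. Alternatives covered scaling, background, filters, floors, columns, probes, variance model and left-out arrays. Some genes are not reported here.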

Additional observations from a re-analysis of the deposited data

How the results depend on the processing

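With 2 arrays per group, calls depended on the variance estimate, and the causes of the changes below were not tested. limma called 0 genes between ME and SED, and 2 (Trh and Pomc) among genes well above background on all 4 arrays, 769 with all array columns, 4460 with normexp on median signal, and 1069 with an intensity trend. The difference between diets gave 130, 93 and 90 calls in the last 3 settings. Leaving out 1 array gave 0 to 14 calls, and 0 to 3 for the difference between diets. Without the replicate block, 0 genes were called, and the block changed no call. The 7 other floors were chosen after seeing the data, as were normexp on median signal and centring; normexp on mean signal was not run, since the files used here gave the median. Floors of 0.015 and 0.02 gave 5 and 1 calls and the others 0. Genes 1.5-fold higher and lower numbered 45 and 78 after quantile normalization, 165 and 531 with no filter (432 opposite), and 11 and 44 on all 4 arrays (10 opposite). With all columns they numbered 750 and 218 (153 opposite), and with normexp 1 and 48 (1 opposite), where the median of all genes was -0.209. Floors of 0.015, 0.02 and 0.026 gave 17 and 87 (16 opposite), 9 and 61 (11 opposite), and 5 and 46 (8 opposite). Lepr changed sign after quantile normalization (0.01), with the percentile taken from column 70 on (0.014), and over left-out arrays, from -0.141 to 0.068. Ntrk2 read 0.09 with all columns. With normexp Ntf3 read -0.007, Vegfb -0.043, Lep -0.095, Olfr661 -0.015 and Cyp19a1 -0.121. Over 18 settings the list medians ranged from -1.632 to -1.122 for pituitary, -0.586 to -0.351 for choroid plexus, -0.551 to -0.332 for meningeal fibroblasts and -0.322 to -0.065 for interferon genes.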
